A study of Mus musculus with 8 samples.

Results

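The genes described are the 49 members of a WNT pathway list: secreted WNT ligands, their receptors, secreted and membrane-bound antagonists, R-spondins, the cytoplasmic machinery around beta-catenin, TCF/LEF transcription factors and target genes. They were chosen by gene symbol from the 43629 gene IDs of the deposited tables, and all 49 symbols were found once each. Messenger RNA had been sequenced from dorsal forebrain, which includes the future neocortex and hippocampus, of male mouse embryos at E12.5, the stage in days of gestation. The 4 Sufu-cKO libraries (Emx1-cre/+;Sufu-fl/fl) carry the names Mut_295, Mut_317, Mut_337 and Mut_340, and the 4 control libraries (Sufu-fl/fl or Sufu-fl/+) the names Cont_294, Cont_345, Cont_365 and Cont_370, all on a mixed background with C57BL/6J. Both genotypes thus carry floxed Sufu, and the control label names no cre, so that an effect of cre itself and of the loss of Sufu cannot be told apart. Emx1-cre acts in dorsal telencephalic progenitors and their descendants, and not in vessels, blood cells, meninges or neurons that migrate in from the ventral telencephalon. SUFU holds back hedgehog signalling inside the cell by binding GLI transcription factors. Whether samples came from separate embryos or litters is not given, and the spread that p-values are set against may thus be technical.

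Total counts lay between 27514357 and 34878838 per sample. Sufu ranged from 105 to 125 CPM (read counts relative to the library total, scaled by TMM factors) in the controls and from 35.9 to 44.8 CPM in Sufu-cKO samples, as counts over the whole gene, which include exons outside the floxed part. Emx1 and Emx2, transcription factors that mark the dorsal telencephalon, were detected in all 8 samples, at 24.1 to 56.6 CPM and 114 to 215 CPM. They were not constant between the genotypes: both were called lower in Sufu-cKO (edgeR, adjusted p under 0.05, described below). Each kept that call in all 8 fits with a sample left out. The cre allele sits at Emx1 in the Sufu-cKO samples, and its part in the Emx1 value was not tested. One library stood apart: markers of meninges and mesenchyme summed to 1542 CPM in Mut_337. Control samples had 859 to 921 CPM, and Mut_295, Mut_317 and Mut_340 had 689, 728 and 713 CPM. Values of members that follow that library are given with it below.

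WNT proteins are secreted, lipid-modified ligands that bind a Frizzled receptor together with LRP5 or LRP6. Binding halts a complex built on AXIN and APC that otherwise marks beta-catenin for destruction, and beta-catenin then enters the nucleus and joins TCF/LEF factors at target genes, several of which encode inhibitors of the pathway. In the embryonic forebrain the cortical hem, a strip at the dorsal midline, makes several WNT ligands, and the pathway is known for its part in the growth of the hippocampal and neocortical primordium and in the vessels of the brain.

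In Sufu-cKO forebrain, ligands (Wnt5a, Wnt5b, Wnt7a, Wnt7b), receptors (Fzd1, Fzd2, Lrp5, Ror2), secreted antagonists (Sfrp1, Dkk3, Wif1), TCF/LEF factors (Lef1, Tcf7) and feedback or target genes (Rnf43, Znrf3, Axin2, Nkd1, Tnfrsf19) were lower than in control, while Fzd8, Ctnnb1 and Tcf7l2 were higher. A low-count filter was passed by 48 of the 49 members, and edgeR called 21 of them at an adjusted p under 0.05 (quasi-likelihood test, Benjamini-Hochberg adjustment over all 15382 tested genes). Of these, 18 were lower (37.5% of 48) and 3 higher (6.25%). The background over all tested genes was 11.0% called, 5.64% lower and 5.34% higher. The list was chosen with earlier results of these data known, so these shares describe the list and do not test it. Groups did not overlap for 20 of the 48 members, against 16.2% of all tested genes. The median log2 fold change of the tested members was -0.17, against 0.01 over all tested genes, and 32 of 48 lay below 0 (7417 of 15382 over all genes). Calls were found at all levels of expression. Of the members, 14 of 28 with 10 to 100 CPM in control were called (11.4% of all genes at that level), 6 of 11 with more than 100 CPM (10.3%), and 1 of 9 with fewer than 10 CPM (10.8%). In bulk tissue, fewer cells of a type and less RNA per cell cannot be told apart. Without Cont_345 the calls over all genes numbered 1079 instead of 1689, and those over the members 18. Against a 1.2-fold change in place of 0, 12 members were called, 11 lower and 1 higher.

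**Figure D1:**
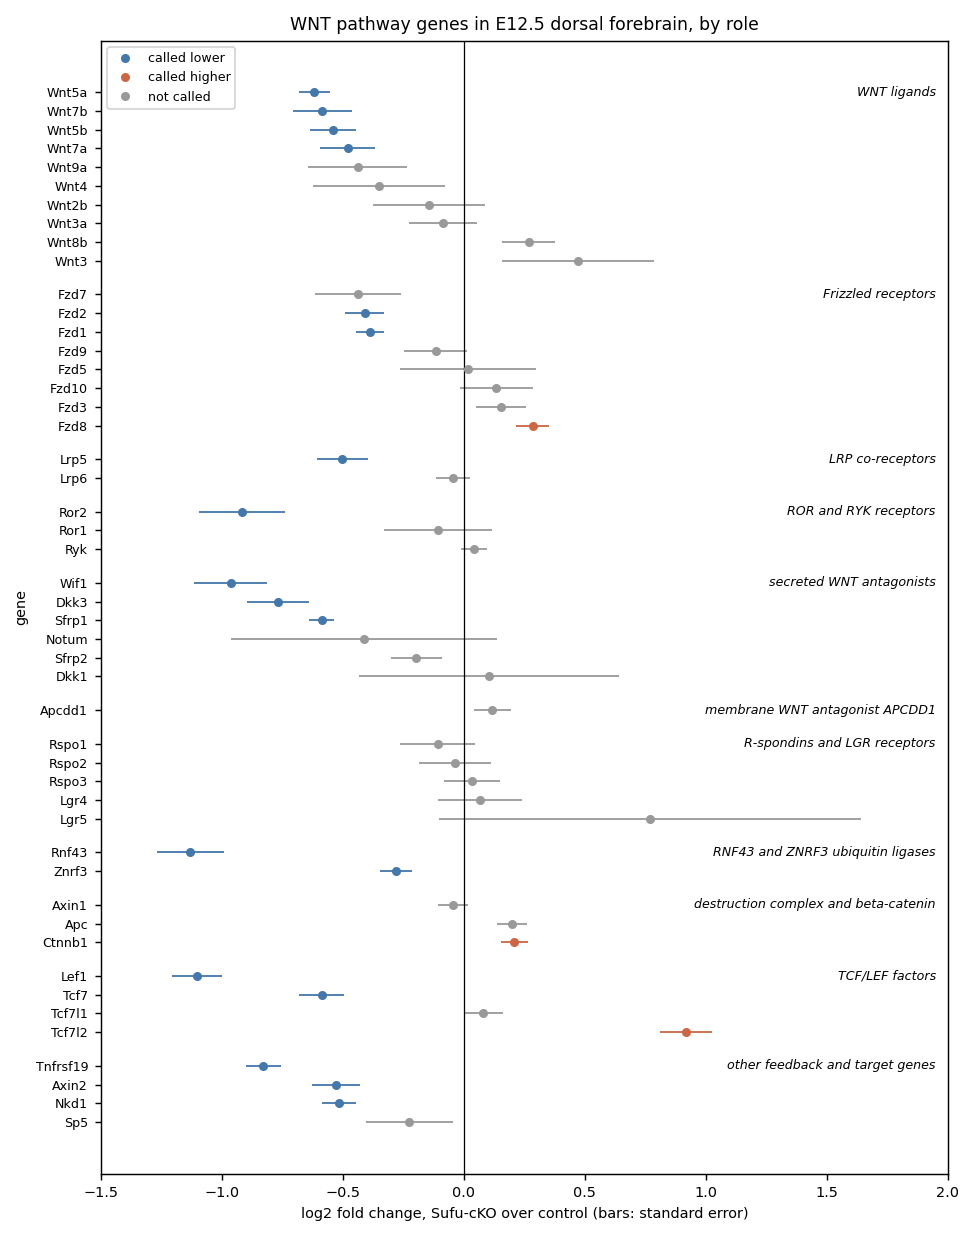
Log2 fold change of Sufu-cKO over control (x axis) for the 48 tested members (y axis), grouped by role, with bars for the standard error. Blue points are the 18 members called lower and red points the 3 called higher (Fzd8, Ctnnb1, Tcf7l2), and grey points were not called.

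Among the ligands, 4 of the 10 tested fell, none rose and 6 did not pass the test (median log2 fold change -0.39). Wnt5a (chromosome 14, 28504750 to 28527447, GRCm38), a ligand known for signalling without beta-catenin, measured 45.4, 49.0, 43.1 and 43.5 CPM in Cont_294, Cont_345, Cont_365 and Cont_370, and 29.6, 29.9, 29.0 and 29.4 CPM in Mut_295, Mut_317, Mut_337 and Mut_340 (the order of samples kept below). The Sufu-cKO values lay within 1 CPM of each other and all below the lowest control, a log2 fold change of -0.62 ± 0.0638 (SE) with an adjusted p of 6.93e-05 in edgeR. Its paralog Wnt5b measured 15.4, 14.5, 13.2 and 14.1 CPM in the controls and 10.1, 9.54, 10.5 and 9.21 CPM in Sufu-cKO. Again no sample of one group reached the other, and the log2 fold change was -0.54 ± 0.0954 (SE) with an adjusted p of 0.00322 in edgeR. Wnt5b overlaps Fbxl14 on the opposite strand, which had 56.7 CPM in control libraries and 52.6 CPM in Sufu-cKO libraries, and reads of the 2 genes cannot be told apart if counting ignored strand, a setting not given in the sources used here. This applies as well to Wnt7b and AU022754 (4.77 CPM in control) and to Tcf7 and A630014C17Rik (0.417 CPM), whose partners were far below the members themselves.

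Wnt7b and Wnt7a, which activate beta-catenin signalling in cortical progenitors and brain endothelium, fell as well. Wnt7b measured 106, 128, 147 and 121 CPM in the controls and 72.3, 99.2, 89.8 and 73.6 CPM in Sufu-cKO. All Sufu-cKO samples lay below all controls, although the gap between the groups was narrow (99.2 against 106 CPM), and the log2 fold change was -0.58 ± 0.121 (SE) with an adjusted p of 0.012 in edgeR. Wnt7a measured 32.7, 40.8, 41.6 and 37.5 CPM in the controls and 33.0, 25.9, 22.5 and 27.9 CPM in Sufu-cKO. Here the groups touched, since Mut_295 stood slightly above Cont_294, and the log2 fold change was -0.48 ± 0.115 (SE) with an adjusted p of 0.0192 in edgeR. Wnt7a was the only called member whose groups overlapped, and its call was lost without Cont_345, Cont_365 or Mut_317 (edgeR, adjusted p up to 0.0651). Its gene lies 6.16 Mb from Emx1 on chromosome 6, where the cre allele sits in the Sufu-cKO samples.

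Wnt8b, Wnt3a, Wnt2b, Wnt9a, Wnt4 and Wnt3 did not pass. Wnt8b, a marker of hem and hippocampal primordium, measured 87.8, 82.6, 75.3 and 110.2 CPM in the controls and 108, 117, 109 and 94.5 CPM in Sufu-cKO. Cont_370 reached into the Sufu-cKO range (log2 fold change 0.27, SE 0.111; edgeR, adjusted p = 0.176), and without that library Wnt8b was called higher (edgeR, adjusted p = 0.0163). The gene lies 1.88 Mb from Sufu on chromosome 19. Wnt3a, the hem ligand needed for hippocampal growth, ranged from 12.01 to 17.3 CPM in control and from 10.7 to 15.4 CPM in Sufu-cKO, with its lowest value in Mut_340 (log2 fold change -0.09, SE 0.141). Wnt2b had 16.2 to 27.6 CPM and 13.7 to 25.1 CPM (log2 fold change -0.14, SE 0.230), so that both groups covered nearly the same range. Wnt9a stood at -0.44 on the log2 scale (SE 0.205) and was called lower only when Mut_337 was left out (edgeR, adjusted p = 0.0493). Wnt4 stood at -0.35 (SE 0.273) and Wnt3 at 0.47 (SE 0.315), the latter with under 1 CPM in every sample. Wnt1, the ligand of the midbrain-hindbrain boundary, had 0 to 1 counts per sample in both genotypes and was not tested. Markers of the hem that are not WNT genes (Lmx1a, Msx1, Msx2, Bmp4, Bmp6, Bmp7, Gdf7) summed to 96.1 to 113 CPM in control and to 53.5 to 106 CPM in Sufu-cKO, lowest in Mut_340. Bmp7 fell among their 6 tested genes, a call kept in 3 of 8 fits with a sample left out, and Gdf7 had 0 counts in all samples. Of the 6, 5 lay below 0 (median log2 fold change -0.41), and DESeq2 called 2 and limma-voom 1. The part of hem cell number in the ligand values was not tested.

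Levels of different genes were compared per transcript length, as RPKM (CPM per kilobase of annotated exon). Wnt7b and Wnt8b were the most abundant ligands of control forebrain and their levels did not differ beyond their spread, at 25.6 ± 3.43 and 25.6 ± 4.33 RPKM (mean ± SD, n = 4). Wnt7a followed with 12.02 ± 1.27 RPKM, and Wnt5a, Wnt5b, Wnt3a and Wnt2b lay close together between 5.15 and 5.78 RPKM, within their spread. In Sufu-cKO samples Wnt8b stood alone at the top with 30.8 ± 2.74 RPKM, ahead of Wnt7b with 17.1 ± 2.66. As a share of the summed RPKM of all 11 ligands, Wnt8b made up 23.9% to 32.8% in the controls and 39.1% to 41.1% in Sufu-cKO samples, and Wnt7b 25.6% to 33.1% and 19.6% to 24.1%. Neither pair of ranges overlapped. The sum itself was 80.6 to 96.5 RPKM in control and 68.0 to 83.9 RPKM in Sufu-cKO.

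**Figure D2:**
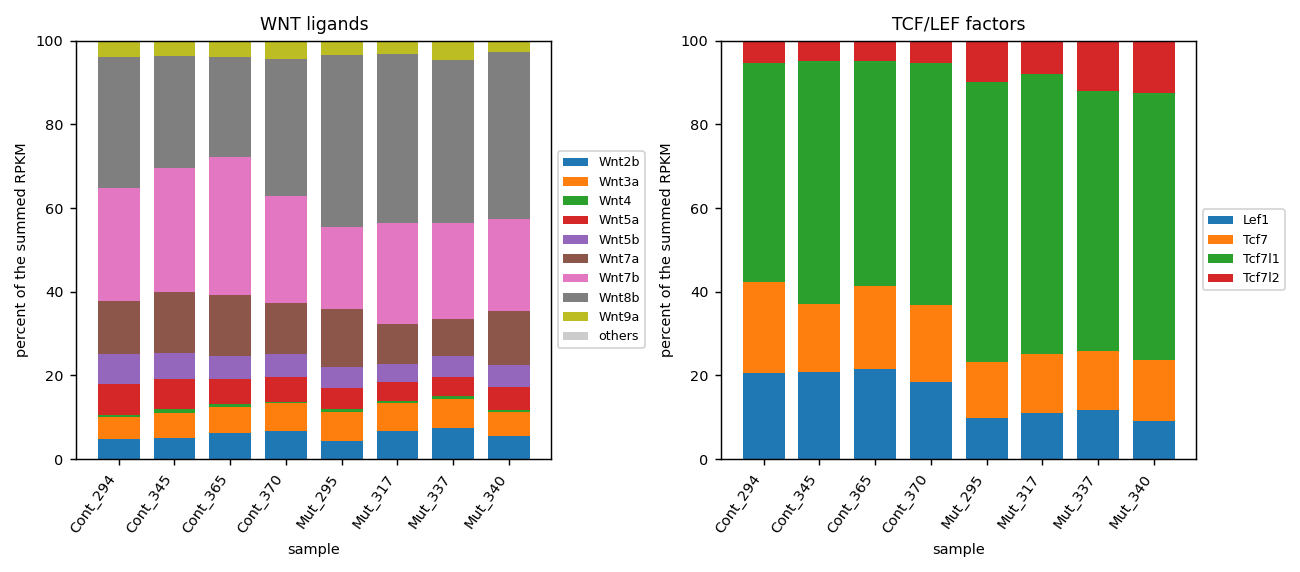
Share of each gene (y axis, percent of the summed RPKM) among the WNT ligands (left) and the TCF/LEF factors (right) in each of the 8 samples (x axis), with Wnt1 and Wnt3 as others. Wnt8b widens from at most 32.8% in a control to at least 39.1% in a Sufu-cKO sample, and Lef1 narrows from at least 18.4% to at most 11.8%.

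Receptors changed in both directions. Of 8 Frizzled genes, which encode the seven-pass receptors of WNT ligands, Fzd1 and Fzd2 fell, Fzd8 rose and 5 did not pass (median log2 fold change -0.05). Fzd1 measured 115, 116, 125 and 109 CPM in the controls and 88.2, 91.0, 92.2 and 84.0 CPM in Sufu-cKO. No Sufu-cKO sample reached the lowest control (log2 fold change -0.39, SE 0.0578; edgeR, adjusted p = 0.00101). Fzd2 measured 89.8, 97.7, 102 and 92.3 CPM in the controls and 77.7, 76.1, 73.5 and 59.98 CPM in Sufu-cKO, also without overlap, at -0.41 ± 0.0811 (SE) on the log2 scale, with an adjusted p of 0.0065 in edgeR. Fzd8, by contrast, measured 69.9, 77.9, 67.5 and 80.6 CPM in the controls and 96.6, 88.8, 86.9 and 88.6 CPM in Sufu-cKO. Every Sufu-cKO sample stood above every control, but the rise was small (log2 fold change 0.29, SE 0.0684; edgeR, adjusted p = 0.0187) and was lost without Cont_294 or Cont_365 (edgeR, adjusted p up to 0.0682). Fzd7 had 43.8, 45.0, 46.1 and 49.5 CPM in the controls and 26.2, 36.8, 46.9 and 26.2 CPM in Sufu-cKO and was not called (log2 fold change -0.44, SE 0.177; edgeR, adjusted p = 0.175). Mut_337, the library with the high meningeal markers, sat within the control range while the other Sufu-cKO samples lay below it, and without Mut_337 Fzd7 was called lower (edgeR, adjusted p = 0.0062). The part of meningeal cells in that value was not tested. Fzd9, Fzd3 and Fzd10 stood between -0.12 and 0.15 on the log2 scale, and Fzd5 had at most 1.69 CPM in any sample. Per length, Fzd1 (27.7 ± 1.58 RPKM) and Fzd2 (26.0 ± 1.46 RPKM) were the most abundant Frizzled transcripts of control forebrain and did not differ beyond their spread.

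Of the LRP co-receptors, Lrp5 fell and Lrp6 did not pass. Lrp5 measured 52.9, 66.7, 66.6 and 57.8 CPM in the controls and 48.6, 45.7, 42.8 and 35.2 CPM in Sufu-cKO, so that the groups were separate (log2 fold change -0.50, SE 0.105; edgeR, adjusted p = 0.00975). Lrp6, the more abundant of the pair at 11.4 ± 0.380 against 6.26 ± 0.700 RPKM in control, ranged from 152 to 162 CPM in control and from 131 to 164 CPM in Sufu-cKO (log2 fold change -0.04, SE 0.0685). Ror2, a receptor tyrosine kinase through which WNT5A is known to signal, measured 46.1, 44.7, 50.9 and 47.3 CPM in the controls and 22.3, 34.7, 26.0 and 17.2 CPM in Sufu-cKO. Its fall was among the 4 largest of the members, at -0.92 ± 0.178 (SE) on the log2 scale, with an adjusted p of 0.0101 in edgeR, and the spread was wider among the Sufu-cKO samples than among the controls. The related Ror1 had 7.51 to 8.94 CPM in control and 5.63 to 12.2 CPM in Sufu-cKO, highest in Mut_337 (log2 fold change -0.11, SE 0.224). Ryk, a WNT receptor with an inactive kinase domain and the most abundant of these 3, ranged from 129 to 146 CPM in control and from 140.4 to 146 CPM in Sufu-cKO (log2 fold change 0.04, SE 0.0524).

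Secreted antagonists fell or did not pass. Of 6 tested, 3 fell (median log2 fold change -0.50). Sfrp1, which binds WNT ligands through a Frizzled-like domain, was the second most abundant member per length after Ctnnb1 and measured 848, 835, 763 and 828 CPM in the controls and 539, 558, 547 and 535 CPM in Sufu-cKO. Values within each genotype were close and the groups far apart, for a log2 fold change of -0.59 ± 0.0514 (SE) with an adjusted p of 1.9e-05 in edgeR. Wif1, another secreted protein that binds WNT ligands, measured 13.4, 12.54, 10.8 and 13.6 CPM in the controls and 5.36, 8.24, 6.86 and 5.36 CPM in Sufu-cKO (log2 fold change -0.96, SE 0.152; edgeR, adjusted p = 0.00151). Dkk3, a divergent member of the Dickkopf family, measured 42.4, 43.3, 56.2 and 45.8 CPM in the controls and 22.6, 29.1, 33.3 and 25.3 CPM in Sufu-cKO (log2 fold change -0.77, SE 0.126; edgeR, adjusted p = 0.00252). In both genes all Sufu-cKO samples lay below all controls. Sfrp2 stood at -0.20 (SE 0.106; edgeR, adjusted p = 0.314) and was called lower only without Mut_337 (edgeR, adjusted p = 0.0375). Dkk1, an inhibitor that binds LRP6, and Notum, an enzyme that removes the lipid of WNT ligands, had under 1 CPM in every sample and did not pass. Apcdd1, a membrane antagonist that is also a target in brain endothelium, ranged from 131 to 162 CPM in control and from 147 to 173 CPM in Sufu-cKO (log2 fold change 0.12, SE 0.0768; edgeR, adjusted p = 0.416).

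R-spondins and their LGR receptors, which amplify WNT signals by removing the ligases RNF43 and ZNRF3 from the cell surface, gave no call among 5 tested genes with edgeR. None of the 5 had an unadjusted p under 0.05, and DESeq2 and limma-voom called none of them either. Rspo1 ranged from 41.3 to 49.9 CPM in control and from 27.6 to 49.0 CPM in Sufu-cKO, with Mut_340 lowest. Rspo3 had 57.7 to 76.0 CPM and 57.7 to 76.1 CPM, and Rspo2 53.7 to 75.2 CPM and 49.0 to 75.5 CPM, so that the genotypes shared most of their range. The log2 fold changes were -0.11 (SE 0.154), 0.03 (SE 0.115) and -0.04 (SE 0.148) in that order. Lgr4 had 10.2 to 16.4 CPM in Sufu-cKO and 9.22 to 13.4 CPM in control, and Lgr5 0.0993 to 1.96 CPM and 0.274 to 0.437 CPM. Both were highest in Mut_337, and the log2 fold change of Lgr5 went from 0.77 with that library to -1.13 without it, neither called.

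The ligases themselves, which are feedback targets that take Frizzled receptors off the membrane, both fell. Rnf43 measured 6.07, 5.83, 5.69 and 5.84 CPM in the controls and 2.81, 2.78, 2.84 and 2.26 CPM in Sufu-cKO, the largest fall of any member (log2 fold change -1.13, SE 0.137; edgeR, adjusted p = 0.000244). Znrf3, the more abundant ligase per length in control (5.56 ± 0.255 against 0.893 ± 0.0242 RPKM), measured 42.6, 45.1, 41.9 and 46.1 CPM in the controls and 36.5, 38.6, 33.2 and 36.4 CPM in Sufu-cKO. Its groups were separate but near each other (log2 fold change -0.28, SE 0.0674; edgeR, adjusted p = 0.019), and the call was lost without Cont_345 or Mut_337 (edgeR, adjusted p up to 0.0676).

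Other feedback and target genes fell too, 3 of 4. Axin2, the scaffold of the destruction complex that WNT signals induce and the usual reporter of pathway activity, measured 103, 104, 109 and 112 CPM in the controls and 77.7, 78.5, 83.3 and 57.6 CPM in Sufu-cKO. Mut_340 was the lowest sample, and no Sufu-cKO sample came near the controls (log2 fold change -0.53, SE 0.0982; edgeR, adjusted p = 0.00497). Nkd1, an inhibitor of Dishevelled, measured 56.0, 50.2, 54.3 and 51.0 CPM in the controls and 39.7, 39.1, 33.7 and 35.5 CPM in Sufu-cKO (log2 fold change -0.52, SE 0.0712; edgeR, adjusted p = 0.000598). Tnfrsf19, also called Troy, a receptor of the tumour necrosis factor family and a target of beta-catenin, measured 499, 462, 440.1 and 399 CPM in the controls and 255, 273, 256 and 231 CPM in Sufu-cKO. It was the most abundant of these genes, and the groups lay far apart (log2 fold change -0.83, SE 0.0737; edgeR, adjusted p = 2.12e-05). Sp5, a transcription factor that is a direct target, measured 4.56, 3.28, 4.64 and 4.18 CPM in the controls and 4.34, 3.80, 3.43 and 2.71 CPM in Sufu-cKO, with overlapping groups (log2 fold change -0.22, SE 0.180; edgeR, adjusted p = 0.531). Several of these targets are also expressed in brain endothelium. Of 12 endothelial markers, all tested, 3 were called lower (Kdr, Cdh5 and Ramp2) and none higher, their median log2 fold change was -0.25, and their summed level was 505 to 564 CPM in control and 403 to 489 CPM in Sufu-cKO. Kdr kept its call in all 8 fits with a sample left out, and Cdh5 and Ramp2 in 2 each. DESeq2 called 4 of the 12 and limma-voom 1, and all 12 log2 fold changes lay below 0. The part of vessels in the target values was not tested.

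**Figure D3:**
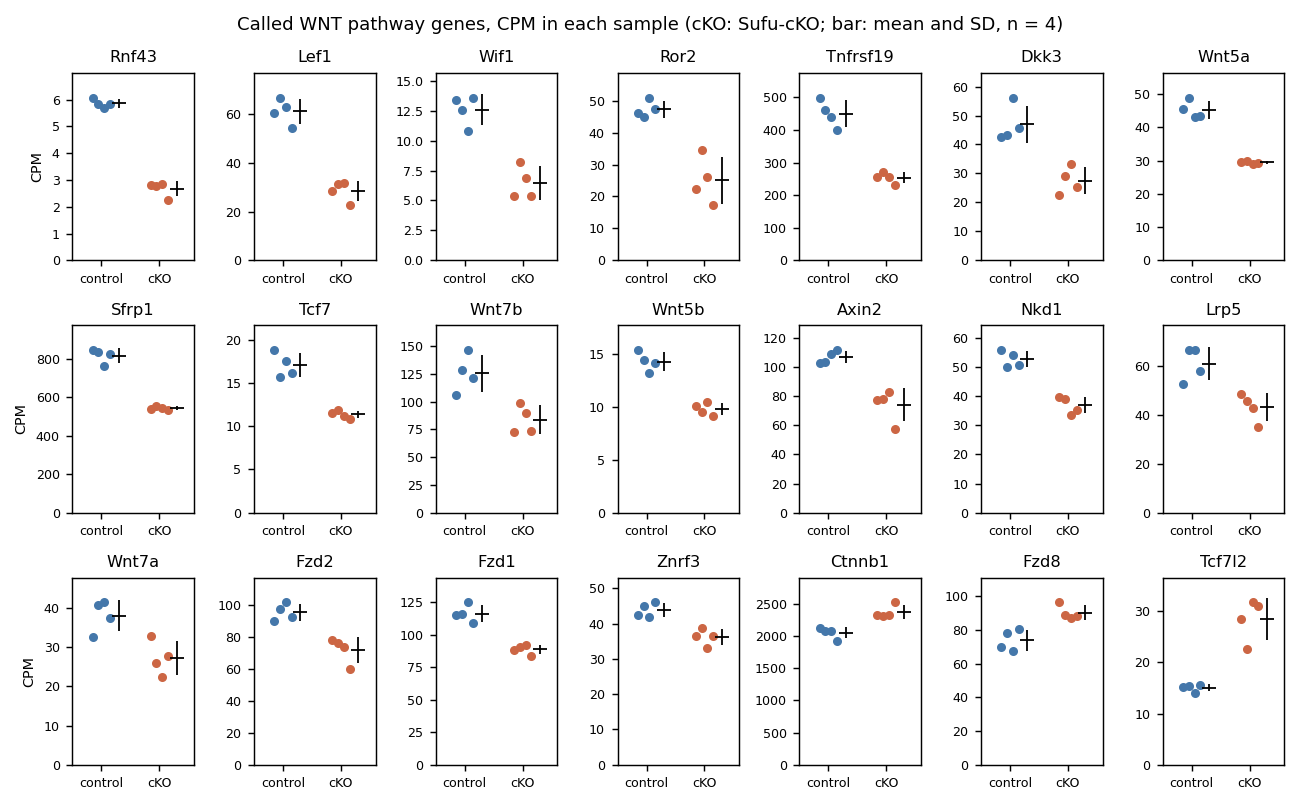
CPM (y axis, from 0) of the 21 called members in each control (blue) and Sufu-cKO (red) sample, ordered from the largest fall to the largest rise, with black bars for mean and SD. Groups are separate in every panel but that of Wnt7a, where Mut_295 stands slightly above Cont_294.

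Promoters are shown because 18 members were called lower, several of them known targets, and TCF/LEF factors bind a known short element. RefSeq windows of 300 bases (250 before to 50 after each start site, GRCm38.p6) were found for 32 of the 49 members, as 42 windows. The letters CTTTGAT, the canonical element, were searched on both strands together with their shorter core CTTTG, which lies within them. CTTTGAT stood in 3 of the 42 member windows and in 3.73% of all 32851 windows, and CTTTG in 21 of the 42 and in 53.9% of all windows. Of the 11 members called lower that had a window, 2 held CTTTGAT and 6 held CTTTG. These are counts per gene over any of its windows, and some genes have several, so they cannot be set against the shares per window. The 250 bases before the start site in the 3 windows that hold CTTTGAT follow, 5′ to 3′ on the strand of the gene, with the element (or ATCAAAG, its reverse complement) in capitals. They belong to 1 of 2 listed start sites of Tnfrsf19 (called lower, chr14:61037988-61038237, minus strand) and 1 of 3 of Wnt5b (called lower, chr6:119449387-119449636, minus strand). Both of these start sites lie inside the gene, and the window at the outermost listed start site of each gene held no CTTTGAT. The remaining window is that of Sp5 (not called, chr2:70474673-70474922, plus strand).
Tnfrsf19: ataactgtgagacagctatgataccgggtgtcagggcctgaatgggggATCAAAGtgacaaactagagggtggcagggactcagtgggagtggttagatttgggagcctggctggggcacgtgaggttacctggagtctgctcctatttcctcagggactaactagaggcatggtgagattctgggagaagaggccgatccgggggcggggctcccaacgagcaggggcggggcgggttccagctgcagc
Wnt5b: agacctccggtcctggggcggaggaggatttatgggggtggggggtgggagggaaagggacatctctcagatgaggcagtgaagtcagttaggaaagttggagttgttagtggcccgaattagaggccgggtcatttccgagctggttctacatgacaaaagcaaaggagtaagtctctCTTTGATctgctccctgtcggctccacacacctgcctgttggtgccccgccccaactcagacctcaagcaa
Sp5: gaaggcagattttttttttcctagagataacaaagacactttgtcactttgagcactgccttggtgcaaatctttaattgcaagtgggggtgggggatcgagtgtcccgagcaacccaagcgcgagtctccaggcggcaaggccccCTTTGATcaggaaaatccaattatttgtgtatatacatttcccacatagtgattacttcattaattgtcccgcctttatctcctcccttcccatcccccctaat
The element begins 202 bases before the start site in Tnfrsf19, 71 before it in Wnt5b and 104 before it in Sp5. The windows of Axin2, Nkd1, Rnf43, Tcf7 and Wnt7a, all called lower, held neither form, and those of Lef1 held the core only. A match is a description of these letters and says nothing of binding in this tissue.

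TCF/LEF factors, the DNA-binding partners of beta-catenin, split by direction: Lef1 and Tcf7 fell, Tcf7l2 rose and Tcf7l1 did not pass. Lef1 (chromosome 3, 131110471 to 131224356) measured 60.4, 66.6, 63.0 and 54.2 CPM in the controls and 28.4, 31.1, 31.5 and 22.7 CPM in Sufu-cKO (log2 fold change -1.10, SE 0.103; edgeR, adjusted p = 3.57e-05). The highest Sufu-cKO sample stayed well below the lowest control. Tcf7 measured 18.9, 15.7, 17.5 and 16.2 CPM in the controls and 11.5, 11.9, 11.3 and 10.8 CPM in Sufu-cKO, again with separate groups (log2 fold change -0.59, SE 0.0921; edgeR, adjusted p = 0.00147). Tcf7l2 (chromosome 19, 55741810 to 55933654), a factor strong in the thalamus, measured 15.3, 15.4, 14.1 and 15.6 CPM in the controls and 28.4, 22.6, 31.8 and 31.0 CPM in Sufu-cKO. Its rise was the largest of any called member (log2 fold change 0.92, SE 0.107; edgeR, adjusted p = 0.000171), with all Sufu-cKO samples above all controls and the lowest of them in Mut_317. Markers of ventral telencephalon and GABAergic neurons, another region of the forebrain, were likewise lowest in Mut_317 among the Sufu-cKO samples, with a sum of 91.5 CPM against 195 to 306 CPM in the other 3 and 46.1 to 155 CPM in control. Of the 10 tested genes of that list, 2 were called higher by edgeR and 8 were not called, and 1 of the 2 calls held in all 8 fits with a sample left out. The median log2 fold change of the 10 was 1.30, with 1 below 0, and DESeq2 called 4 and limma-voom 3. Markers of diencephalon and eminentia thalami, summed without Tcf7l2 (a choice made after seeing the data), ran from 70.2 to 80.4 CPM in control and from 48.7 to 61.2 CPM in Sufu-cKO, with Mut_317 at 57.6 CPM and Mut_340 lowest. Of the diencephalic markers listed beside Tcf7l2, Gbx2 and Foxa2 had under 1 CPM in every sample, Barhl2 and Irx3 did not pass, Olig3 rose (at most 1.36 CPM) and Lhx9 fell. The part of other regions in the Tcf7l2 value was not tested. The gene lies 9.25 Mb from Sufu.

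Tcf7l1, a factor that mostly represses, was the most abundant of the 4 per length, with 19.0 ± 1.67 RPKM in control and 20.1 ± 1.92 RPKM in Sufu-cKO (log2 fold change 0.08, SE 0.0817; edgeR, adjusted p = 0.639). In control, Lef1 (6.95 ± 0.595 RPKM) and Tcf7 (6.51 ± 0.538) did not differ beyond their spread, and Tcf7l2 came last (1.72 ± 0.0786). In Sufu-cKO samples Lef1 and Tcf7l2 did not differ beyond their spread, at 3.23 ± 0.463 and 3.25 ± 0.473 RPKM. As a share of the summed RPKM of the 4 factors, Tcf7l2 made up 4.79% to 5.30% in control and 8.03% to 12.53% in Sufu-cKO, and Lef1 18.4% to 21.4% and 9.14% to 11.8%.

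Of the destruction complex and beta-catenin, Ctnnb1 rose and Apc and Axin1 did not pass. Ctnnb1, which encodes beta-catenin and serves in cell junctions as well, was the most abundant member per length and measured 2123, 2084, 2075 and 1925 CPM in the controls and 2327, 2308, 2327 and 2526 CPM in Sufu-cKO. It was called higher by a small margin, 0.21 ± 0.0562 (SE) on the log2 scale with an adjusted p of 0.0324 in edgeR, a call kept only without Mut_295 when samples were left out in turn (otherwise up to an adjusted p of 0.0860 with edgeR). Ulk4, which overlaps it on the opposite strand, had 28.2 CPM in control libraries and 41.4 CPM in Sufu-cKO libraries, a small part of the Ctnnb1 level. Apc, the scaffold of the destruction complex, ranged from 238 to 253 CPM in control and from 249.98 to 299 CPM in Sufu-cKO, and was not called (log2 fold change 0.20, SE 0.0619; edgeR, adjusted p = 0.064). It was called higher without Mut_295 (edgeR, adjusted p = 0.00594) and with DESeq2 (adjusted p = 0.0288). Axin1, the constitutive relative of Axin2, had 98.4 to 110.0 CPM and 95.5 to 109 CPM (log2 fold change -0.04, SE 0.0610), so that its genotypes overlapped.

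**Figure D4:**
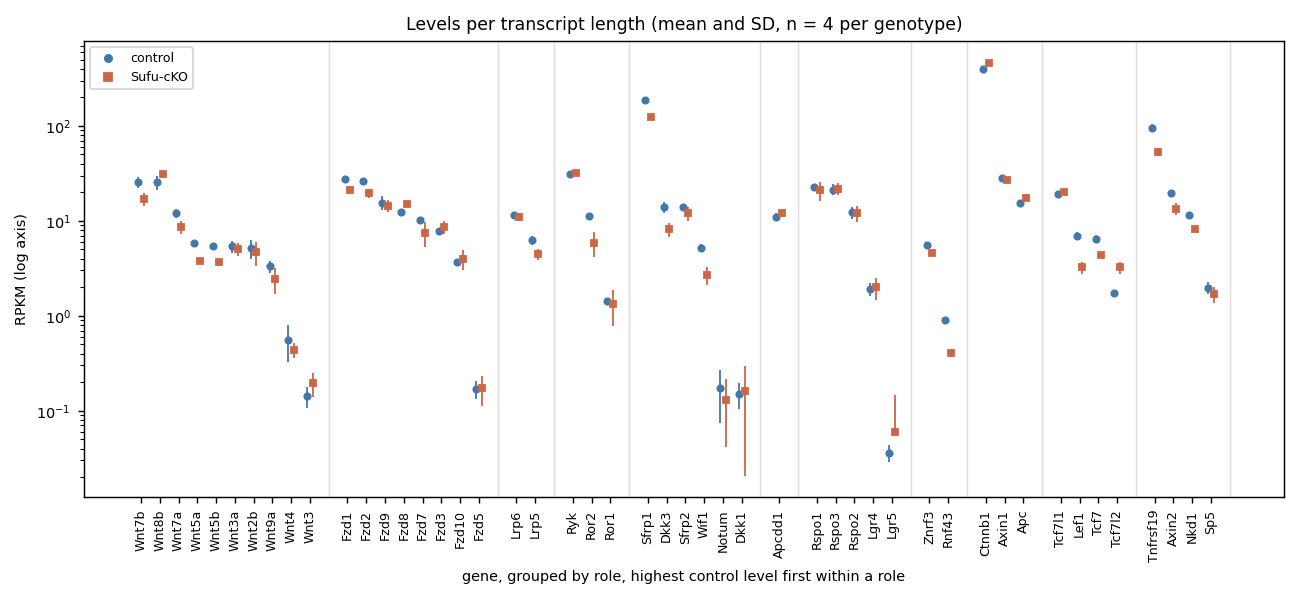
RPKM (y axis, log scale) of the 48 tested members in control (blue circles) and Sufu-cKO (red squares), as mean and SD over 4 samples, grouped by role and ordered by control level (x axis). Ctnnb1, Sfrp1 and Tnfrsf19 are the most abundant members in both genotypes. Where the SD exceeds the mean (Lgr5 in Sufu-cKO), only the upper bar is drawn.

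Other genes of the pathway, 65 outside the members, gave fewer calls. Of 54 tested, 8 were called (14.8%, against 11.0% of all tested genes) and 46 did not pass (median log2 fold change -0.06). Of the 8, 7 fell (13.0% of 54, against 5.64% of all tested genes) and 1 rose (1.85%, against 5.34%). Groups did not overlap for 14.8% of the 54, against 16.2% of all tested genes. Frzb, a secreted relative of Sfrp1, went from 23.7 ± 1.93 to 12.4 ± 1.84 CPM (mean ± SD, n = 4 each; edgeR, adjusted p = 0.000242). Wls, the carrier that brings WNT ligands to the cell surface, went from 102 ± 5.77 to 69.5 ± 11.5 CPM (edgeR, adjusted p = 0.00454). Pygo1, a nuclear co-activator of beta-catenin, and Tle4, a co-repressor, fell by 0.42 and 0.41 on the log2 scale. In all 4 genes the groups were separate. The other 3 that fell, named after their values were seen, were Wnt10a, Sostdc1 and Prickle1. Prickle1 kept its call in only 2 of 8 fits with a sample left out (edgeR, adjusted p up to 0.149) and under 1 of the 3 other scalings, and Sostdc1 in 4 of those 8 fits. The 1 gene that rose was Ccnd1, encoding cyclin D1, often listed as a WNT target and also induced by hedgehog signals, which went from 283 ± 28.4 to 506 ± 33.3 CPM (edgeR, adjusted p = 2.4e-05). Of 13 tested genes of cytoplasmic transduction (Dishevelled, GSK3, casein kinase 1, tankyrase and others), edgeR called none, with 2 at an unadjusted p under 0.05 and log2 fold changes from -0.09 to 0.15. DESeq2 and limma-voom called none of the 13 either.

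Choroid plexus markers fell in 5 of 8 tested genes, with sums of 524 to 799 CPM in control and 90.4 to 289 CPM in Sufu-cKO, lowest in Mut_340. That sample was also the lowest of its group for many members, and not only those of the hem. Among them were Wnt3a, Rspo1, Rnf43, Axin2, Lef1, Fzd1, Lrp5, Ror2, Sfrp1, Tcf7 and Tnfrsf19. Other called members, Wnt5a, Wnt7a, Nkd1 and Znrf3, were lowest in Mut_337, and Ctnnb1 was highest in Mut_340. Pericyte markers fell in 1 of 7 genes (145 to 172 CPM and 110 to 138 CPM) and microglial markers in 4 of 8 (62.4 to 75.2 CPM and 44.1 to 57.8 CPM). None of 9 meningeal and none of 9 erythroid markers was called by edgeR, with 0 and 4 at an unadjusted p under 0.05. DESeq2 called 0 and 2 of them, and limma-voom none. All 9 erythroid markers nevertheless lay below 0, with a median log2 fold change of -0.41 (-0.08 for the meningeal list). The erythroid sums were 3541 to 4659 CPM in control and 3058 to 3510 CPM in Sufu-cKO, without overlap. Dorsal telencephalic progenitor markers fell in 4 of 8 genes, Emx1 (where the cre allele sits in Sufu-cKO samples), Emx2, Lhx2 and Dmrta2, and rose in 1, Pax6. Their sums were 1503 to 1710 CPM in control and 1199 to 1397 CPM in Sufu-cKO. Intermediate progenitor markers rose in 2 of 5 and fell in 1 (528 to 663 CPM and 534 to 662 CPM), Cajal-Retzius markers rose in 1 of 6 and fell in 1 (195 to 222 CPM and 158 to 204 CPM), and projection neuron markers rose in 2 of 7 (1554 to 1864 CPM and 1830 to 2072 CPM). Of these calls, 3 of 5 in choroid plexus (not Kcne2 and Slc4a5), 1 of 1 in pericytes, none of 4 in microglia and 1 of 2 in Cajal-Retzius cells held in all 8 fits with a sample left out, as did all in dorsal progenitors, intermediate progenitors and projection neurons. The median log2 fold change was -1.42 for the choroid plexus list, -0.39 for microglia, -0.23 for pericytes and -0.36 for dorsal progenitors. All 8 tested choroid plexus, all 8 microglial and all 7 pericyte markers lay below 0. DESeq2 called 8, 4 and 1 of them in that order, and limma-voom 7, 4 and 1. The part of these cell types in the member values was not tested.

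**Figure D5:**
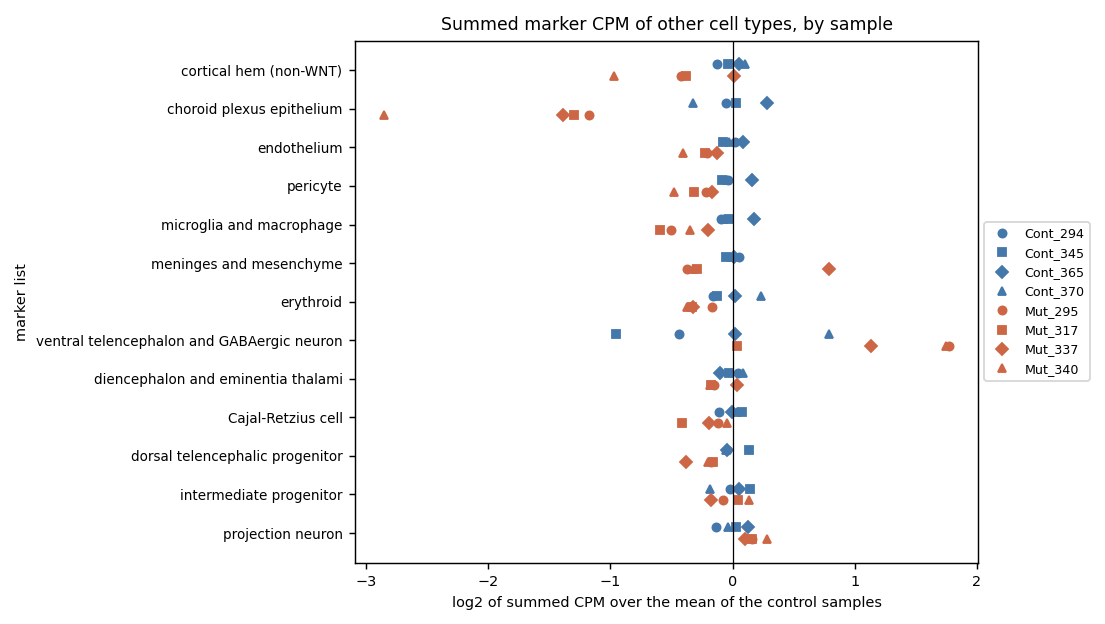
Summed CPM of 13 marker lists (y axis) in each sample, as log2 of the ratio to the mean of the control samples (x axis; blue, control; red, Sufu-cKO). Choroid plexus markers are lower in all Sufu-cKO samples, most in Mut_340. Meningeal markers are high in Mut_337 alone and lie below all controls in the other Sufu-cKO samples.

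The authors' deposited table gives its own fold change and false discovery rate for all 49 members. At a false discovery rate under 0.05 it holds 18 of them, 17 lower and 1 higher (5.78% of its 25299 genes in either direction). All 18 were also called here. The other 3 calls made here, Fzd8, Ctnnb1 and Znrf3, had false discovery rates of 0.0651, 0.232 and 0.0796 in the authors' deposited table, and these are 3 of the 4 members whose call was lost when single samples were left out. The fourth, Wnt7a, had 0.00626 in the authors' deposited table.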

How the data were processed

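The authors deposited whole-number counts per Ensembl gene for 4 Sufu-cKO and 4 control samples, from a stranded messenger RNA library kit, per the labels. Reads were aligned to GRCm38 with STAR 2.4.2a, per the submitters' processing notes, and the sources used here name neither the counter nor its strand setting. The authors also deposited a normalized signal (the counts divided by 1 factor per sample), of which only the scaling was checked, and, per the file headers, their own fold ratio, p-value and false discovery rate for each gene, made with a program that no source used here names.

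Counts were fitted with edgeR 4.0.16 in R 4.3.3 (TMM scaling, filterByExpr minimum count 10, minimum total 15, robust quasi-likelihood test, genotype as the only term), which left 15382 of 25299 genes with any count. P-values were adjusted by Benjamini-Hochberg over all tested genes and called under 0.05. No replicate number is shared between the genotypes, so no pairing was fitted. Total counts were 27514357 to 34878838 per sample. RPKM used exon lengths of the GENCODE annotation of GRCm38. The fit was tested on simulated data. Alternatives were 3 scalings, 2 filters, DESeq2 1.42.0, limma-voom (limma 3.58.1), estimation without robust weights, a test against a 1.2-fold change and each sample left out in turn.

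The members and all gene lists were chosen with earlier results of these data known. All called members, and in each role the most abundant uncalled ones, were to be named in full. The remaining members are named so that all 49 are accounted for. Of other pathway genes, up to 4 called in each direction were to be named.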

Additional observations from a re-analysis of the deposited data

Results flagged for a closer look

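In groups of 4 samples, the highest or lowest sample was set against the other 3 by Dixon's test of its gap against the range of the group, at the 95% critical value. Of 96 groups of members, 8 passed, where chance gives about 1 in 20 (4.8), and of 26 groups of marker sums, 3 did. Mut_337 was the high sample for Ror1 (12.2 CPM, others 5.63 to 6.69), Lgr4 (16.4 CPM, others 10.2 to 10.3) and Lgr5 (1.96 CPM, others 0.0993 to 0.282). It was high as well for the summed markers of meninges and mesenchyme (1542 CPM, others 689 to 728) and of diencephalon and eminentia thalami (93.0 CPM, others 79.7 to 81.7). The latter list holds the member Tcf7l2, and without that gene the sum in Mut_337 was 61.2 CPM against 48.7 to 57.6 CPM, which no longer passed. Mut_340 was the low sample for the hem ligand Wnt3a (10.7 CPM, others 14.6 to 15.4) and the ligase Rnf43 (2.26 CPM, others 2.78 to 2.84), and the high one for Ctnnb1 (2526 CPM, others 2308 to 2327). Among controls, Cont_370 was high for Rspo1 (49.9 CPM, others 41.3 to 42.5) and low for Axin1 (98.4 CPM, others 109.5 to 110.0), and Cont_345 was high for the summed markers of dorsal telencephalic progenitors (1710.4 CPM, others 1503 to 1511).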

How the results depend on the processing

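All 21 called members kept direction and call under the 3 scalings, and 17 kept the call in each of the 8 fits with a sample left out. No called member changed direction in any fit. Against a 1.2-fold change, 716 genes in all, 12 members (11 lower, 1 higher) and 4 lower pathway genes outside the members were called. Higher pathway genes outside the members numbered 2 without a low-count filter and 2 with DESeq2. With single samples left out, calls ranged from 1079 to 1836 over all genes (1079 without Cont_345), 18 to 22 over the members, 16 to 20 lower and 1 to 4 higher members, and 5 to 9 lower and 1 to 2 higher pathway genes. The share of higher genes among the calls was 48.7%, and 44.4% or 45.0% with upper-quartile scaling or total counts.

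Signs turned only for uncalled members, and the cause was not tested. The log2 fold change ranged, with samples left out, from -0.65 to 0.39 for Dkk1 (-0.25 with limma-voom), -0.20 to 0.18 for Fzd5 (-0.0011 with upper-quartile scaling, -0.026 with limma-voom), -1.13 to 1.12 for Lgr5 (-0.23 with limma-voom), -0.15 to 0.16 for Lgr4, -0.083 to 0.017 for Lrp6, -0.44 to 0.013 for Ror1, -0.22 to 0.034 for Rspo1, -0.16 to 0.055 for Rspo2, -0.033 to 0.10 for Rspo3, -0.0015 to 0.058 for Ryk and -0.18 to 0.019 for Wnt3a. No paired analysis was possible because no replicate number is shared between the genotypes. Tested members under 1 CPM in every sample had standard errors of 0.315 (Wnt3), 0.538 (Dkk1) and 0.548 (Notum) on the log2 scale, against 0.0514 for Sfrp1. The parts of depth and of spread between libraries in these errors were not tested.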

Other observations

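Of 11 pathway genes outside the members that were too low for a test, a few had counts in Sufu-cKO samples alone. Wnt9b, a ligand of the developing kidney and face, had 0 counts in each control sample and 0 to 11 counts in Sufu-cKO samples, and Wnt2 had 0 and 0 to 5. Both were highest in Mut_337, at 0.322 CPM (Wnt9b) and 0.147 CPM (Wnt2). Wnt11 had 3 to 11 counts in control and 2 to 35 in Sufu-cKO, the highest in Mut_337, the library with the high meningeal markers. Dkk4, a secreted inhibitor, had 0 counts in all 8 samples.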
